A study of Saccharomyces cerevisiae with 12 samples.

Results

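Hap1 is the heme-responsive transcription activator of budding yeast, and the genes described here are HAP1 itself and 5 genes that it activates: CYC1, CYT1, CYB2, YHB1 and MCR1. They were chosen by gene symbol in the platform annotation, taking the brightest probe set of a gene, and all 6 were found among the 5449 genes that the arrays measured. Each of the 6 had a single probe set, and none carried the suffix of sets that may read near-identical genes. RNA of 12 Saccharomyces cerevisiae cultures was hybridized to Affymetrix arrays, 1 array per culture and 3 biological replicates per group. The groups were YSBN2 in glucose-limited chemostat, YSBN2 in aerobic batch, CEN.PK 113-7D in glucose-limited chemostat and CEN.PK 113-7D in aerobic batch. By the labels YSBN2 is prototrophic FY, a background derived from S288C, with the genotype ho::Ble/ho::HphMX4, and CEN.PK 113-7D is a prototroph of mating type a. The genotype of YSBN2 is written as for a diploid, but ploidy is not stated, and each background is represented by 1 strain. Strain background and any difference in ploidy or mating type therefore cannot be told apart in the strain comparisons. All reactors were aerated and held 4 L at 30 °C and pH 5. The chemostat feed held glucose at 7.5 g/L with ethanol at 0.3 g/L and was supplied at 0.1 volumes per h, and batch medium held glucose at 30 g/L.

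Values are log2 signals per probe set, and every difference below is on that scale, so that 1 unit is a 2-fold change. A difference is called where its adjusted p, by limma with Benjamini-Hochberg adjustment over all 5716 probe sets, was under 0.05. Array medians ran from 11.02 to 11.37, and the lowest values gathered near 2. Probe sets of different genes are not compared in level. The arrays report each transcript relative to the other labelled RNA, so less of it in every cell and the same amount in fewer cells cannot be told apart. HO, the gene disrupted in YSBN2 by its labels, read from 2.11 to 2.39 in the 6 YSBN2 arrays. In the 6 CEN.PK 113-7D arrays it read from 11.46 to 12.62. Where its probes lie relative to the disruption is not given in the sources used here. FUS3, a mating-response gene that the labels do not name, was also near the lowest values in YSBN2 only (1.95 to 1.96). The cause of either low signal was not tested. Array 3 of YSBN2 batch was unlike its group, since 196 of its probe sets lay 2 units or more from the mean of the other arrays in the group, against 2 to 77 in each of the remaining 11 arrays. Results that turn on it are given with and without it. A sequence difference between the strains under a probe and a difference in transcript level cannot be told apart in these values.

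Hap1 binds DNA through a zinc cluster, and heme, which yeast makes only when oxygen is present, relieves it of repression so that it activates genes of respiration, sterol synthesis and oxidative or nitrosative defence. Through the repressor Rox1, whose gene Hap1 also activates, heme shuts off genes of hypoxic growth. In S288C and its derivatives HAP1 carries a Ty1 retrotransposon near the end of its coding region, which lowers the activity of the protein, whereas some other laboratory strains have an intact gene. The HAP1 sequence of these 2 strains was not examined here, and the position of the probes relative to that insertion is not given in the sources used here.

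HAP1 transcript was higher in YSBN2 than in CEN.PK 113-7D in both cultures, and higher in the chemostat than in batch in both strains. The HAP1 probe set (YLR256W) read 13.79, 13.88 and 13.87 in the YSBN2 chemostat arrays, and 12.60, 12.49 and 11.87 in the YSBN2 batch arrays. In CEN.PK 113-7D it read 12.70, 13.01 and 12.71 in the chemostat, and 10.00, 10.26 and 10.46 in batch. No 2 groups that follow each other in level overlapped, and the order was YSBN2 chemostat, CEN.PK 113-7D chemostat, YSBN2 batch and CEN.PK 113-7D batch. In batch YSBN2 exceeded CEN.PK 113-7D by 2.08 ± 0.19 (SE, adjusted p = 4.4e-05), a 4.22-fold difference. In the chemostat the excess was 1.04 ± 0.19 (adjusted p = 0.0036), or 2.06-fold. In the chemostat HAP1 was higher than in batch by 1.53 ± 0.19 in YSBN2 (adjusted p = 0.00012) and by 2.56 ± 0.19 in CEN.PK 113-7D (adjusted p = 3.3e-06). Without YSBN2 batch array 3, the lowest of its group, the strain difference in batch was 2.30.

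**Figure D1:**
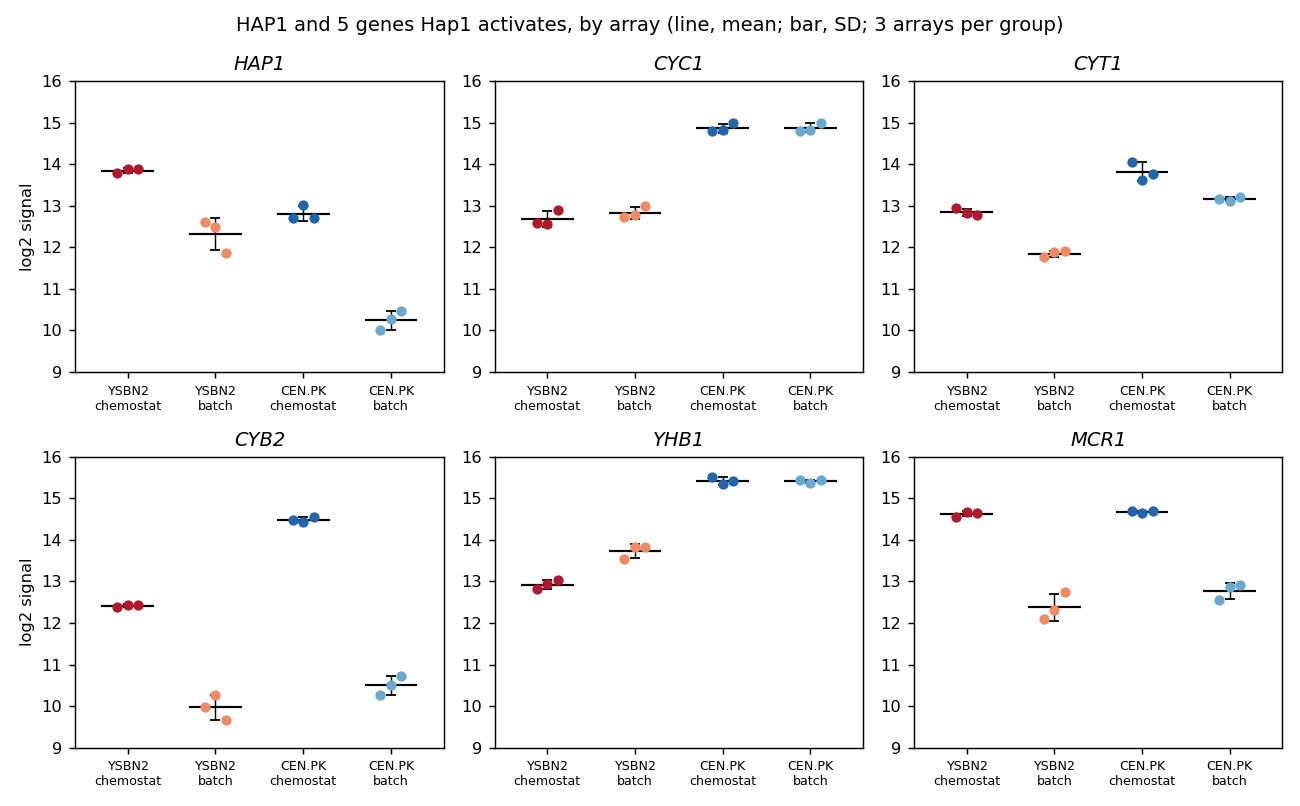
Log2 signal of HAP1, CYC1, CYT1, CYB2, YHB1 and MCR1 in each array (points), with the mean of the 3 arrays of a group (line) and the SD (bar). HAP1 is higher in YSBN2 in both cultures, while CYC1, CYT1, CYB2 and YHB1 are lower in YSBN2 in both cultures.

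The targets went the other way between the strains: CYC1, CYT1, CYB2 and YHB1 were called lower in YSBN2 both in batch and in the chemostat, and MCR1 was not called in either culture. CYC1 encodes iso-1-cytochrome c, the main electron carrier between complexes III and IV of the respiratory chain. Its probe set (YJR048W) read 12.58, 12.57 and 12.89 in the YSBN2 chemostat arrays and 12.73, 12.77 and 12.99 in the YSBN2 batch arrays. In CEN.PK 113-7D it read 14.79, 14.81 and 14.99 in the chemostat and 14.80, 14.83 and 14.998 in batch. The strains were far apart and the cultures within a strain overlapped. The difference between YSBN2 and CEN.PK 113-7D was -2.18 ± 0.11 in the chemostat (adjusted p = 1.6e-06) and -2.05 ± 0.11 in batch (adjusted p = 1.5e-06). CYC1 was thus 4.55-fold lower in YSBN2 in the chemostat and 4.13-fold lower in batch.

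CYT1 encodes cytochrome c1, the heme-bearing subunit of complex III that passes electrons to cytochrome c. The CYT1 probe set (YOR065W) read 12.94, 12.82 and 12.77 in the YSBN2 chemostat arrays, against 14.06, 13.63 and 13.77 in those of CEN.PK 113-7D. In batch it read 11.77, 11.88 and 11.90 in YSBN2, against 13.16, 13.12 and 13.22 in CEN.PK 113-7D. All 6 YSBN2 arrays lay below all 6 CEN.PK 113-7D arrays, and no neighbouring groups overlapped. The strain difference was -0.98 ± 0.11 in the chemostat (adjusted p = 0.00019) and -1.32 ± 0.11 in batch (adjusted p = 1.6e-05).

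CYB2 encodes flavocytochrome b2, the L-lactate dehydrogenase of the mitochondrial intermembrane space, which hands electrons from lactate to cytochrome c. In the chemostat the CYB2 probe set (YML054C) read 12.38, 12.43 and 12.44 in YSBN2, against 14.49, 14.43 and 14.54 in CEN.PK 113-7D. In batch it read 9.97, 10.26 and 9.67 in YSBN2, against 10.28, 10.50 and 10.72 in CEN.PK 113-7D, where the highest YSBN2 array lay just under the lowest CEN.PK 113-7D array. YSBN2 was 4.19-fold lower in the chemostat (-2.07 ± 0.15, adjusted p = 1.3e-05) and 1.45-fold lower in batch (-0.53 ± 0.15, adjusted p = 0.025). The batch call was lost without CEN.PK 113-7D batch array 2 or 3 or YSBN2 batch array 1, where the adjusted p was at most 0.084. It was also lost in a fit of the 6 batch arrays alone (adjusted p = 0.13).

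YHB1 encodes the flavohemoglobin that detoxifies nitric oxide with oxygen. The YHB1 probe set (YGR234W) read 12.81, 12.94 and 13.04 in the YSBN2 chemostat arrays and 13.55, 13.84 and 13.82 in the YSBN2 batch arrays. In CEN.PK 113-7D it read 15.52, 15.34 and 15.42 in the chemostat and 15.43, 15.36 and 15.43 in batch. The CEN.PK 113-7D arrays spanned less than 0.2 units over both cultures, while the YSBN2 groups lay apart from each other and well below. YSBN2 was lower by 5.66-fold in the chemostat (-2.50 ± 0.10, adjusted p = 1.4e-07) and by 3.19-fold in batch (-1.67 ± 0.10, adjusted p = 1.7e-06). With the probe sets ordered by strain difference from the lowest, YHB1 stood at 79 of 5716 in the chemostat and at 101 in batch, and CYC1 at 109 and 77.

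MCR1 encodes the mitochondrial NADH-cytochrome b5 reductase, an enzyme of the outer membrane and intermembrane space. In the chemostat the MCR1 probe set (YKL150W) read 14.56, 14.67 and 14.65 in YSBN2, against 14.68, 14.64 and 14.69 in CEN.PK 113-7D. In batch it read 12.09, 12.31 and 12.74 in YSBN2, against 12.54, 12.87 and 12.91 in CEN.PK 113-7D, and the groups overlapped in both cultures. The difference was -0.05 in the chemostat (95% interval -0.39 to 0.30, adjusted p = 0.88) and -0.39 in batch (95% interval -0.74 to -0.05, adjusted p = 0.086). The batch difference was called at -0.57 without YSBN2 batch array 3 (adjusted p = 0.0040) and at -0.51 without CEN.PK 113-7D batch array 1 (adjusted p = 0.048), and it was -0.25 without YSBN2 batch array 1. It was also called with a common array median (-0.49, adjusted p = 0.036), quantile normalization (-0.45, adjusted p = 0.040) and array weights (-0.61, adjusted p = 0.00033).

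Across all probe sets 15.3% were called lower in YSBN2 than in CEN.PK 113-7D in the chemostat and 10.5% in batch, against 4 of the 5 targets in each culture. Without CEN.PK 113-7D chemostat array 2 the chemostat calls in both directions numbered 1056 in place of 1613. In both cultures at once 317 of 5716 probe sets, or 5.55%, were called lower, and CYC1, CYT1, CYB2 and YHB1 were among them. HAP1 was among the 12.9% of probe sets called higher in YSBN2 in the chemostat, the 18.5% called higher in batch, and the 355, or 6.21%, called higher in both. With the arrays shifted to a common median, the batch calls of all probe sets split into 846 higher and 845 lower, in place of 1060 and 601. The median strain difference of the 5 targets was -2.07 in the chemostat and -1.32 in batch, beside -0.01 and 0.02 over all probe sets. The batch and chemostat comparisons of the strains share no array.

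**Figure D2:**
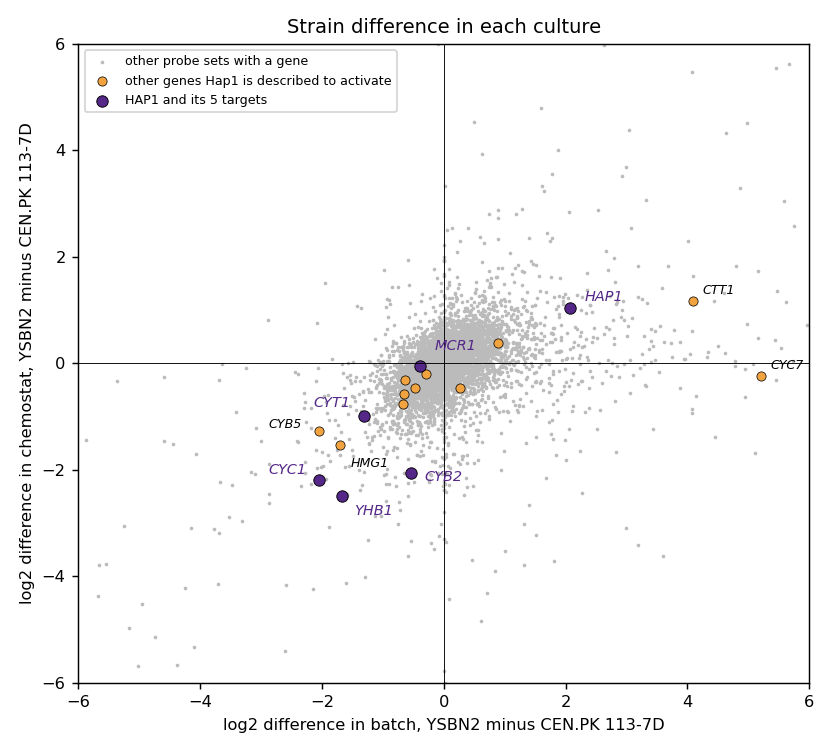
Log2 difference between YSBN2 and CEN.PK 113-7D in batch (horizontal axis) and in the chemostat (vertical axis) for each probe set with a gene (grey), with HAP1 and its 5 targets in purple and other genes that Hap1 is described to activate in orange; 46 probe sets lie beyond 6 units and are not drawn. HAP1 stands in the upper right, CYC1, CYT1, CYB2 and YHB1 in the lower left, and MCR1 near the origin.

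The comparison of cultures asks how these genes differ between glucose limitation and glucose excess. HAP1, CYT1, CYB2 and MCR1 were called higher in the chemostat than in batch in both strains, while CYC1 was called in neither and YHB1 was called lower in YSBN2. CYB2 had the largest estimated rise of the 6 in each strain, by 2.45 ± 0.15 in YSBN2 (5.46-fold, adjusted p = 1.1e-06) and by 3.98 ± 0.15 in CEN.PK 113-7D (15.8-fold, adjusted p = 2.2e-08). MCR1 rose by 2.25 ± 0.15 in YSBN2 (adjusted p = 2.4e-06) and by 1.90 ± 0.15 in CEN.PK 113-7D (adjusted p = 5.9e-06). CYT1 rose less, by 0.99 ± 0.11 in YSBN2 (adjusted p = 4.5e-05) and by 0.66 ± 0.11 in CEN.PK 113-7D (adjusted p = 0.00054).

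The chemostat difference of CYC1 was -0.15 in YSBN2 (95% interval -0.41 to 0.11, adjusted p = 0.30) and -0.01 in CEN.PK 113-7D (95% interval -0.27 to 0.24, adjusted p = 0.97). YHB1 fell by 0.81 ± 0.10 in the YSBN2 chemostat (1.75-fold, adjusted p = 8.6e-05), and its difference in CEN.PK 113-7D was 0.02 (95% interval -0.20 to 0.23, adjusted p = 0.93). In CEN.PK 113-7D the sign of both genes turned under some alternatives, none of which called them. Shifting the arrays to a common median moved the median culture difference of all probe sets by -0.13 in YSBN2 and by -0.28 in CEN.PK 113-7D, and the CEN.PK 113-7D differences of CYC1 and YHB1 were then -0.30 and -0.27. Of all probe sets 30.6% were called higher and 21.9% lower in the YSBN2 chemostat, and 33.9% and 22.2% in the CEN.PK 113-7D chemostat. Under a common array median these splits were 1475 higher and 1566 lower in YSBN2, in place of 1750 and 1254, and 1452 and 2143 in CEN.PK 113-7D, in place of 1936 and 1271. A rise in both strains was called for 24.5% of probe sets, among them these 4 genes.

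**Figure D3:**
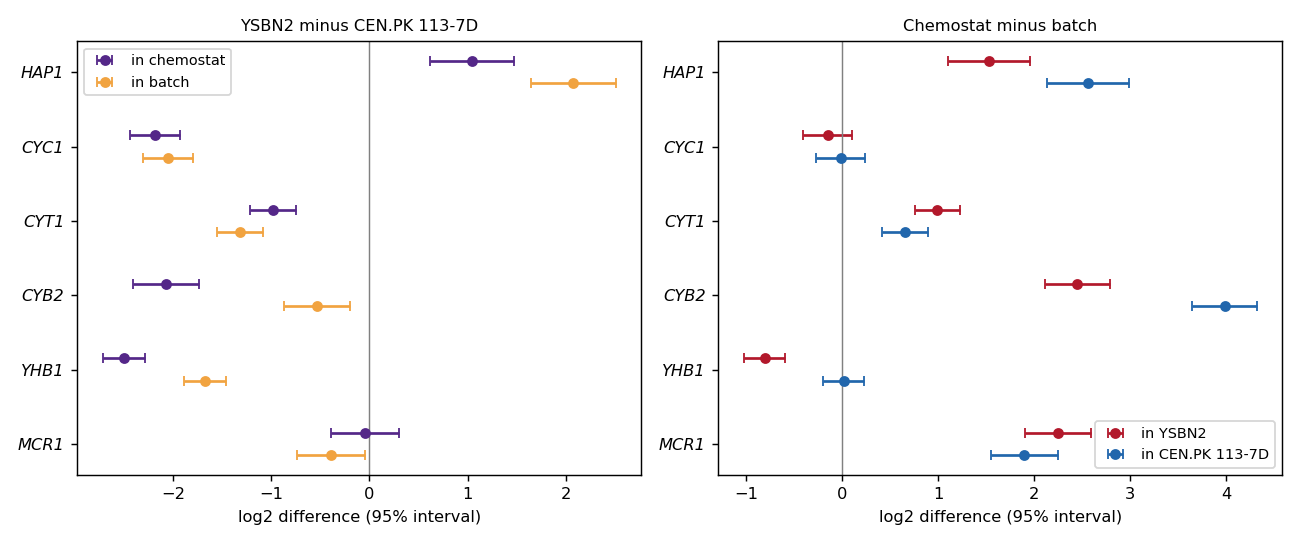
Log2 differences of the 6 genes with 95% intervals: YSBN2 minus CEN.PK 113-7D in the chemostat and in batch (left), and chemostat minus batch in YSBN2 and in CEN.PK 113-7D (right). On the left HAP1 lies right of 0 and CYC1, CYT1, CYB2 and YHB1 left of it in both cultures, and on the right CYB2 lies farthest from 0 in both strains.

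The chemostat effect differed between the strains for CYB2, YHB1 and HAP1, each with a lower value in YSBN2. For CYB2 the effect in YSBN2 minus that in CEN.PK 113-7D was -1.53 ± 0.21 (adjusted p = 0.0015), and for YHB1 it was -0.83 ± 0.13 (adjusted p = 0.0035). That of HAP1 was -1.04 ± 0.27 (adjusted p = 0.030), a call lost with a common array median (adjusted p = 0.058) and on leaving out any array (adjusted p up to 0.077) except array 3 of CEN.PK 113-7D batch, array 1 of its chemostat and array 3 of YSBN2 batch. Only 10 of 23 alternatives kept the HAP1 call, and its value ran from -1.26 to -0.73 over them all. For CYC1 the difference of effects was -0.14 (95% interval -0.50 to 0.22), for CYT1 0.34 (95% interval 0.0016 to 0.67) and for MCR1 0.35 (95% interval -0.14 to 0.84), none of them called. That of MCR1 was called at 0.53 without YSBN2 batch array 3 (adjusted p = 0.037) and was 0.20 without array 1, and that of CYT1 was called at 0.46 without CEN.PK 113-7D chemostat array 1 (adjusted p = 0.028). A difference of effects was called for 15.4% of all probe sets, 11.1% with a lower value in YSBN2. Those 248 higher and 634 lower calls became 409 and 483 under a common array median, and without YSBN2 batch array 3 they were 586 and 896.

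Among the 5 targets, CYC1 and YHB1 separated the strains with little or no dependence on the culture in CEN.PK 113-7D, while CYT1 and CYB2 depended on both strain and culture. MCR1 was called between the cultures, and between the strains only in batch and only under the alternatives named above and 1 with a replicate block. Likeness of pattern was measured by Pearson's r over the 12 arrays, among 3560 other genes with a mean of at least 6 and a range of at least 1. These arrays form 4 groups, so r mostly reflects how group means line up. CYC1 and YHB1 were alike (r = 0.97), and ERG13, the gene of HMG-CoA synthase in the sterol pathway, was closest to YHB1 (r = 0.99). Closest to CYC1 were FUS3, a MAP kinase gene of the mating response (r = 0.99), the HO gene disrupted in YSBN2 (r = 0.99) and AQY2 (r = 0.99). FUS3 read 1.95 to 1.96 in the 6 YSBN2 arrays and 9.51 to 10.63 in the 6 CEN.PK 113-7D arrays. HMG1, another gene that Hap1 activates, was closest to CYT1 (r = 0.98). CYB2 was most like MAL32, a maltase gene (r = 0.99), and MCR1 was most like PXA2 of the peroxisomal fatty acid transporter and PEX11 of peroxisome proliferation (r = 0.996 and 0.994). The MAL32 probe set carries the suffix of sets that may read near-identical genes, and its batch arrays read only 3.10 to 5.54. HAP1 was most like PNS1 (r = 0.996), followed by the protein kinase genes KIN1 and PSK1 (r = 0.995 and 0.992). The PNS1 mean ran from 12.53 in the YSBN2 chemostat to 10.25 in CEN.PK 113-7D batch, the same top and bottom groups as for HAP1.

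Of 11 other genes that Hap1 is described to activate, 8 were called lower and 1 higher in YSBN2 in the chemostat (all probe sets: 15.3% and 12.9%). In batch 7 of the 11 genes were called lower and 3 higher (all probe sets: 10.5% and 18.5%). Their median strain difference was -0.46 in the chemostat and -0.47 in batch. Between the cultures 8 of the 11 were called higher and 1 lower in the chemostat in each strain, with medians of 0.90 in YSBN2 and 0.67 in CEN.PK 113-7D, beside 0.06 and 0.09 over all probe sets. Of all probe sets 30.6% were called higher and 21.9% lower in YSBN2, and 33.9% and 22.2% in CEN.PK 113-7D. CYB5, the gene of cytochrome b5, was lower in YSBN2 by 2.42-fold in the chemostat (-1.27 ± 0.14, adjusted p = 0.00024) and by 4.12-fold in batch (-2.04 ± 0.14, adjusted p = 6.4e-06). HMG1, encoding the aerobic HMG-CoA reductase that commits carbon to sterols, was lower by 2.90-fold in the chemostat (-1.54 ± 0.06) and 3.27-fold in batch (-1.71 ± 0.06). Smaller differences were found for genes of late sterol synthesis, such as ERG5 (-0.76 ± 0.10 in the chemostat and -0.67 ± 0.10 in batch) and ERG2 (-0.58 ± 0.06 and -0.66 ± 0.06). ROX1, encoding the repressor of hypoxic genes, was not called (0.38 in the chemostat and 0.90 in batch, adjusted p = 0.50 and 0.10), and its difference was 0.25 in the chemostat without CEN.PK 113-7D chemostat array 1 and 0.45 in batch without YSBN2 batch array 3.

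CYC7 and CTT1 did not share the direction of CYC1. CYC7, which encodes the second cytochrome c isoform, read 11.62, 11.86 and 10.93 in the YSBN2 chemostat and 10.52, 10.78 and 10.42 in YSBN2 batch. In CEN.PK 113-7D it read 11.92, 11.51 and 11.71 in the chemostat and only 5.41, 5.66 and 5.00 in batch. In batch YSBN2 lay 5.21 ± 0.25 above CEN.PK 113-7D (adjusted p = 6.0e-07), while in the chemostat the difference was -0.24 (adjusted p = 0.52) and 0.0295 without YSBN2 chemostat array 3. The CEN.PK 113-7D batch arrays of CYC7 lay under 6, and its batch difference ran from 3.96 to 5.37 over the alternatives. CTT1, the gene of cytosolic catalase, was higher in YSBN2 by 1.17 ± 0.17 in the chemostat (adjusted p = 0.0013). In batch it was called higher too, but the CEN.PK 113-7D arrays, at 2.88 to 3.56, lay near the lowest values of the arrays. The CTT1 difference in batch was 4.09 as deposited and 1.37 with values under 6 raised to 6 (adjusted p = 2.2e-05). NCP1, of the cytochrome P450 reductase, was lower in the YSBN2 chemostat (-0.46 ± 0.09) and slightly higher in YSBN2 batch (0.27 ± 0.09, adjusted p = 0.044), a call lost on leaving out any array (adjusted p up to 0.15) except arrays 1 of CEN.PK 113-7D batch, 3 of its chemostat, 3 of YSBN2 batch and 2 of its chemostat.

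**Figure D4:**
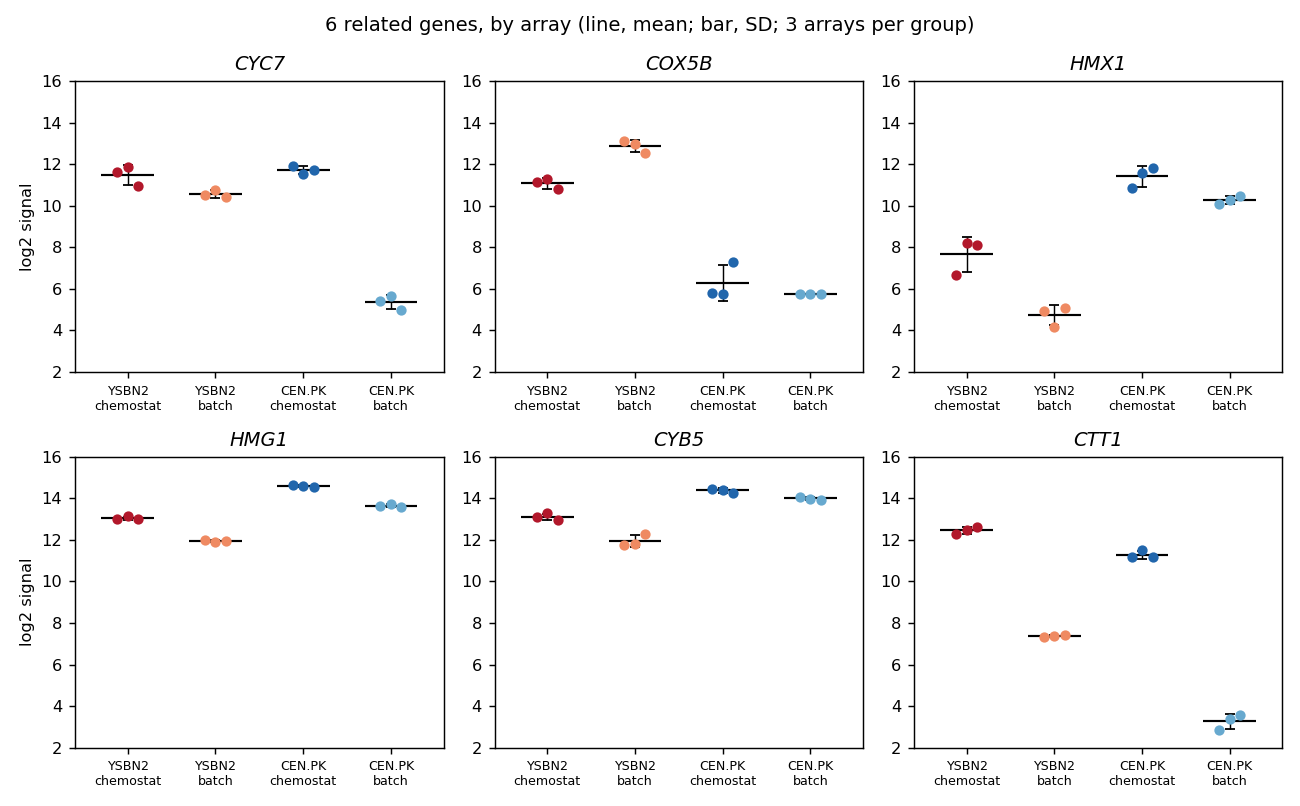
Log2 signal of CYC7, COX5B, HMX1, HMG1, CYB5 and CTT1 in each array (points), with group mean (line) and SD (bar, 3 arrays). CYC7 is low only in CEN.PK 113-7D batch, COX5B is high in both YSBN2 groups, and HMX1, HMG1 and CYB5 are lower in YSBN2 in both cultures.

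Among 8 hypoxic genes that Rox1 represses, 1 was called higher and 1 lower in YSBN2 in the chemostat, near the shares of all probe sets (12.9% and 15.3%). In batch 2 were called higher and 1 lower (all probe sets: 18.5% and 10.5%), or 2 and 4 without YSBN2 batch array 3. The gene called lower in batch was ANB1, with means of 3.33 in YSBN2 and 4.05 in CEN.PK 113-7D, near the lowest values of the arrays. DAN1 read 1.97 to 1.98 in every array. COX5B, the hypoxic isoform of a cytochrome c oxidase subunit, read 10.80 to 11.29 in the YSBN2 chemostat and 12.54 to 13.11 in YSBN2 batch, against 5.75 to 7.28 and 5.74 to 5.76 in CEN.PK 113-7D. The CEN.PK 113-7D batch arrays were nearly constant, and whether they lie above the background of the probes is not given in the sources used here. With values under 6 raised to 6, the strain difference was 4.65 in the chemostat (adjusted p = 2.0e-05) and 6.88 in batch (adjusted p = 1.1e-06). COX5A, the aerobic isoform of the same subunit, was lower in YSBN2 in batch (-0.74 ± 0.12, adjusted p = 0.0015). It was also called lower in the chemostat (-0.44), a call lost on leaving out 5 of the 12 arrays in turn (adjusted p up to 0.073). HMG2, the second HMG-CoA reductase gene, was higher in YSBN2 in batch (0.77 ± 0.12). HEM13, encoding the oxygen-requiring heme synthesis enzyme coproporphyrinogen oxidase, was lower in the YSBN2 chemostat (-1.35 ± 0.27, adjusted p = 0.0058).

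Of the 16 nuclear genes for subunits of complexes III and IV, the neighbours of cytochrome c, 4 were called lower and 1 higher in YSBN2 in the chemostat (all probe sets: 15.3% and 12.9%). In batch 13 of the 16 genes were called lower and 1 higher (all probe sets: 10.5% and 18.5%). Without any 1 of the 6 chemostat arrays, or without array 2 of either batch group, only 1 or 2 were called lower in the chemostat, and 2 with a common array median. Their median strain difference was -0.08 in the chemostat and -0.50 in batch. RIP1, the Rieske iron-sulfur protein, was lower by 1.39 ± 0.18 in YSBN2 batch (adjusted p = 0.00042). The gene called higher was QCR8 in both cultures (2.89 ± 0.25 in the chemostat and 2.53 ± 0.25 in batch). All 16 were called higher in the chemostat than in batch in YSBN2 (all probe sets: 30.6%) and 14 in CEN.PK 113-7D (all probe sets: 33.9%), with medians of 1.12 and 0.71. That effect was called larger in YSBN2 for 8 of them, or 5 without CEN.PK 113-7D chemostat array 2 or 3, YSBN2 chemostat array 2 or YSBN2 batch array 2.

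The Hap2/3/4/5 complex is the other main activator of respiratory genes, and HAP3 and HAP4 of its 4 genes were called higher in the CEN.PK 113-7D chemostat than in batch (all probe sets: 33.9%, and 30.6% in YSBN2). HAP3, a DNA-binding subunit, was the only one called in YSBN2 (0.69 ± 0.23, adjusted p = 0.032), and that call was lost with quantile normalization, with cyclic loess, in a fit of the 6 arrays and without YSBN2 batch array 1 or 2 or YSBN2 chemostat array 2 (adjusted p of 0.054 to 0.11). In CEN.PK 113-7D the HAP3 difference was 0.98 (adjusted p = 0.0055), but 0.29 and not called with quantile normalization (adjusted p = 0.12). HAP4, its regulatory subunit, read 12.89, 13.04 and 12.86 in the YSBN2 chemostat and 11.58, 11.58 and 13.65 in YSBN2 batch, where array 3 lay far above the others. HAP4 rose by 1.74 ± 0.46 in the CEN.PK 113-7D chemostat (adjusted p = 0.0098). In the YSBN2 chemostat its difference was 0.66 (adjusted p = 0.26), but 1.35 and called without YSBN2 batch array 3 (adjusted p = 1.3e-05), and 0.31 without array 1 or 2. Between the strains the HAP4 difference was -0.48 in the chemostat (adjusted p = 0.48) and 0.60 in batch (adjusted p = 0.37). In the chemostat it was called without YSBN2 batch array 3 (adjusted p = 0.0048) and in a fit of the 6 chemostat arrays (adjusted p = 0.0062), and in batch it was -0.088 without that array.

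Heme supply and use were examined in 9 genes, of which 4 were called lower in YSBN2 in the chemostat (all probe sets: 15.3%). In batch 2 were called lower and 1 higher (all probe sets: 10.5% and 18.5%), or 4 and 1 without YSBN2 batch array 3. HMX1, the heme oxygenase that degrades heme, had the largest strain difference of the 9 in both cultures. It read 6.68, 8.20 and 8.10 in the YSBN2 chemostat and 4.92, 4.19 and 5.07 in YSBN2 batch, against 10.85, 11.60 and 11.82 and 10.09, 10.28 and 10.47 in CEN.PK 113-7D. The strain difference of HMX1 was -3.76 ± 0.42 in the chemostat (adjusted p = 0.00025) and -5.55 ± 0.42 in batch (adjusted p = 1.2e-05). Its YSBN2 batch arrays lay under 6, and the batch difference ran from -5.79 to -4.28 over the alternatives. HEM2, encoding porphobilinogen synthase, was lower in YSBN2 (-0.92 ± 0.12 in the chemostat and -0.55 ± 0.12 in batch), and HEM14, encoding protoporphyrinogen oxidase, was higher in batch (1.10 ± 0.10). Of 3 genes of cytochrome heme lyases, CYC2 was called lower in YSBN2 in both cultures and CYT2 in batch. CYC2 is a partner of the lyase that attaches heme to cytochrome c, and its difference was -0.35 ± 0.10 in the chemostat (adjusted p = 0.029) and -0.60 ± 0.10 in batch (adjusted p = 0.0021). The chemostat call was lost with a common array median or quantile normalization (adjusted p = 0.069 and 0.054), with trend and robust eBayes (adjusted p = 0.066) and without CEN.PK 113-7D chemostat array 1 or 3 or YSBN2 chemostat array 1 or 3 (adjusted p up to 0.10). The call of CYT2 was lost on leaving out 5 of the 12 arrays in turn (adjusted p up to 0.090).

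Genes that work beside CYB2, MCR1 and YHB1 were counted together: of 9 genes for lactate use, NADH dehydrogenases and nitrosative stress, 4 were called lower in YSBN2 in the chemostat (all probe sets: 15.3%) and 2 in batch (all probe sets: 10.5%). Of these the chemostat calls of NDE1 and SFA1 were lost on leaving out 5 and 4 of the 12 arrays in turn (adjusted p up to 0.073 and 0.078). JEN1, the lactate permease that feeds CYB2, was called higher in the chemostat in both strains, and its 6 batch arrays read 2.44 to 2.53, near the lowest values of the arrays. With values under 6 raised to 6, its rise was 8.55 in YSBN2 and 8.48 in CEN.PK 113-7D. DLD1, the D-lactate dehydrogenase gene, fell by 0.76 ± 0.10 in the YSBN2 chemostat and was lower there than in the CEN.PK 113-7D chemostat (-0.69 ± 0.10). CBR1 encodes another cytochrome b5 reductase, and its chemostat difference was opposite to that of MCR1, at -0.38 ± 0.09 in YSBN2 and -0.46 ± 0.09 in CEN.PK 113-7D. NDE1, an external NADH dehydrogenase, was lower by 2.00-fold in YSBN2 batch (adjusted p = 0.011), a call lost in a fit of the 6 batch arrays (adjusted p = 0.087). NDI1, the internal NADH dehydrogenase, was lower in the YSBN2 chemostat (-0.72 ± 0.11). SFA1, which metabolizes nitrosoglutathione and formaldehyde adducts, was lower in YSBN2 batch (-0.71 ± 0.13, adjusted p = 0.0030). SSU1, the sulfite pump gene, rose by 1.02 ± 0.21 in the YSBN2 chemostat and by 2.09 ± 0.21 in that of CEN.PK 113-7D.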

How the data were processed

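The deposited table holds log2 signals of 5716 probe sets on 12 arrays, read as log2 from their range of 1.69 to 16.2, since no source used here states the log base. R 2.6, affy and RMA are named per the submitters' processing notes, with no order or settings, and the array medians still differ. Probe sets were named from the platform annotation. It pairs 5498 with 1 gene, 0 with several and 218 with none, and 12 symbols were updated through RefSeq (R64). No probe set was filtered out, and 0 deposited columns were left unused.

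A model with a mean for each of the 4 groups was fitted to the 12 arrays with limma 3.58.1 (R 4.3.3, default eBayes, 8 residual and 1.34 prior degrees of freedom), and 5 contrasts were tested two-sided. Adjustment was by Benjamini-Hochberg over all probe sets of a contrast. Errors with differences are SEs, intervals are 95%, and 3 arrays per group limit the precision. The fit was tested on simulated data.

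Members and gene lists were chosen with earlier results of these data known. Other genes come from 9 lists, and the 3 genes most like a member by Pearson's r could be named. FUS3, PNS1 and MAL32 lie outside the lists. Sequences, coordinates and promoter motifs were not used here. Same-numbered CEN.PK 113-7D arrays of both cultures deviated together (r = 0.50, 0.28 and 0.31), a pairing that comes from the data and not from the labels. Each other comparison had at least 1 r under 0.1, although r was 0.60 for replicate 1 of the 2 strains in the chemostat. Alternatives were a common array median, quantile and cyclic loess normalization, filters on dim probe sets, a floor of 6, trend and robust eBayes, arrayWeights, a replicate block, fits of 6 arrays, stricter thresholds, and leaving out each array.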

Additional observations from a re-analysis of the deposited data

Results flagged for a closer look

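The interaction term of the limma fit (effect in YSBN2 minus effect in CEN.PK 113-7D) flagged 13 genes. The flagged genes beyond HAP1 and its 5 targets were taken because this term was called. The 13 are therefore not a share of the genes examined. Of all probe sets 15.4% were called, 11.1% with a lower value in YSBN2. Outside the 13, the term was called higher in YSBN2 for 8 nuclear genes of complexes III and IV and for ANB1. It was called lower for HEM12. Of HAP1 and its 5 targets, the flagged genes were CYB2 (-1.53), YHB1 (-0.83) and HAP1 (-1.04). Among the other genes that Hap1 is described to activate they were CYC7 (-5.46 ± 0.35, adjusted p = 1.5e-05), CTT1 (-2.92 ± 0.25, adjusted p = 7.9e-05), CYB5 (0.77 ± 0.20, adjusted p = 0.030) and NCP1 (-0.74 ± 0.13, adjusted p = 0.0041). The effect also differed for the hypoxic genes COX5B (-2.34 ± 0.51, adjusted p = 0.014) and HMG2 (-0.77 ± 0.17, adjusted p = 0.014), and for HEM14 (-0.91 ± 0.14, adjusted p = 0.0029), NDI1 (-0.67 ± 0.16, adjusted p = 0.021), DLD1 (-0.52 ± 0.14, adjusted p = 0.037) and SSU1 (-1.08 ± 0.30, adjusted p = 0.040). The calls of CYB5 and SSU1 were each lost on leaving out 8 of the 12 arrays in turn, and that of DLD1 on leaving out 9. All 3 held without YSBN2 batch array 3 (adjusted p = 0.0020, 0.021 and 0.019). The call of NDI1 was lost without YSBN2 chemostat array 1 (adjusted p = 0.050) and when the arrays were shifted to one median (adjusted p = 0.10). That of COX5B was lost with quantile normalization (adjusted p = 0.91), and that of CTT1 with values under 6 raised to 6 (adjusted p = 0.43). The call of CYC7 held in all 22 alternatives, at -5.65 to -4.17.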

How the results depend on the processing

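Of 738 alternative values of the 6 genes, 691 kept direction and side of the threshold. The number of the 6 called stayed within 1.5 times when arrays were left out in turn, at 4 to 6 between the strains in batch and 2 to 4 for the difference of effects. It was 3 in place of 5 between the strains in batch with a replicate block within those 6 arrays, where HAP1 (adjusted p = 0.051) and CYB2 (adjusted p = 0.22) were lost. For the difference of effects it was 5 in place of 3 with arrayWeights and 1 with treat at 1.5-fold. No replicate block changed a call of the 6 genes in the CEN.PK 113-7D culture comparison. With the replicate number as a block over 12 arrays, CYC1 was called in the YSBN2 culture comparison (adjusted p = 0.045) and MCR1 and ROX1 between the strains in batch (adjusted p = 0.049 and 0.029). The block within the 6 batch arrays also ended the batch calls of RIP1, COX5A, SFA1, CYC2, HMG2, HEM2, NCP1, CYT2 and NDE1 (adjusted p of 0.056 to 0.14), and the block within the 6 chemostat arrays ended those of CYC2 and SFA1 there (adjusted p = 0.099 and 0.052) and called ROX1, HAP4 and CYT2 (adjusted p = 0.042, 0.030 and 0.044). The 12-array block ended the chemostat call of RIP1 (adjusted p = 0.053). These blocks rest on shared numbers only. Differences near 0 changed sign. CYC1 in the CEN.PK 113-7D cultures was 0.026 with quantile normalization, 0.053 with cyclic loess, 0.022 with arrayWeights and -0.074 to 0.049 without single arrays. YHB1 there was -0.27 with a common array median and -0.032 to 0.062 without single arrays. With a common array median MCR1 between the strains in the chemostat was 0.0068 and the CYC1 difference of effects 0.0145. CYC7 between the strains in the chemostat was -0.44 to 0.0295 without single arrays, and HAP4 between them in batch was -0.088 to 0.95. Probe sets called in the culture comparison of CEN.PK 113-7D numbered 1790 without the 50% dimmest probe sets and 1317 with treat, in place of 3207. In that of YSBN2 they numbered 1665, 1236 and, with the block within 6 arrays, 1927, in place of 3004. Between the strains in batch the main count of 1661 became 1024 without the 50% dimmest, 3080 with arrayWeights, 955 in a fit of the 6 arrays, 507 with the block within them, 947 at an adjusted p under 0.01 and 413 with treat. Between the strains in the chemostat 1613 became 1053 without the dimmest, 2547 with arrayWeights, 860 at 0.01, 265 with treat and 1056 to 2200 without single arrays. For the difference of effects 882 became 532, 1974, 407, 240 and 593 to 1482 under the same alternatives. Each of the 6 genes has 1 probe set, so the alternative of other probe sets could not be run.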
